A study of Mus musculus with 48 samples.

Results

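Vastus intermedius and vastus lateralis are neighbouring heads of the quadriceps in the thigh, and the labels describe them as slow-biased and fast-biased muscles. The adult libraries of these muscles were compared as poly(A) RNA-seq read counts per gene, with 12 of the 48 libraries in the series. They were chosen by the muscle and stage in the column names of the deposited count table. The study sampled 4 hindlimb muscles (vastus intermedius, vastus lateralis, soleus and gastrocnemius) from 6 adult mice and 6 E18.5 embryos. Both groups come from adult males of FVB/NJ, an inbred strain, without treatment and with no engineered allele named in the labels, so they differ in muscle alone. The labels give differing ages for these mice, and the stage is called adult here. The vastus intermedius entered the test with 5 libraries and the vastus lateralis with 6. Columns carry 6 collection tags, written A to F in date order, each with 1 library of each muscle, so that A, C, D, E and F give 5 pairs and vastus lateralis B has no partner.

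Skeletal muscle is a mixture of fibre types, each named for its myosin heavy chain, the motor protein that sets how fast a fibre shortens. Slow type I fibres use Myh7, resist fatigue and burn fat and lactate in mitochondria, whereas fast type IIa, IIx and IIb fibres use Myh2, Myh1 and Myh4 and rely increasingly on glycolysis. Most sarcomere and calcium-handling proteins come as slow and fast versions made from separate genes, so the expression of these gene pairs reflects the fibre makeup of a muscle. Postural muscles close to the bone tend to hold more slow fibres than superficial ones.

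The 11 libraries held 14.9 to 32.4 M counts each, with a median of 23.3 M. The first principal component carried 60.2% of the variance and parted the muscles, and along the second (12.3%) vastus lateralis D stood apart. That library was also the shallowest, at 14.9 M counts, and without it 6583 of 13463 genes passed the test given below. The vastus intermedius library of collection B was left out. Its log2 CPM (counts scaled to the library total) correlated at 0.7843 with the mean of the other adult vastus intermedius libraries and at 0.9895 with the mean of the E18.5 vastus intermedius libraries. Scaled together with the E18.5 libraries, it held 8916 CPM of the embryonic myosin Myh3, against 6.18 to 22.8 CPM in the others. Libraries of a group differed by more than counting error in every pair. The muscle filament gene Des was abundant in all 11, at 2871 to 3480.5 CPM in vastus intermedius and 2910.3 to 5127 CPM in vastus lateralis.

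Of 13434 genes tested, 6568 (48.9%) passed an adjusted p of 0.05 in edgeR's quasi-likelihood test, with 3454 (25.7%) higher and 3114 (23.2%) lower in vastus intermedius. The adjusted p-values below are from that test, with Benjamini-Hochberg adjustment over all genes tested, and log2 fold changes are vastus intermedius over vastus lateralis with their standard error. That fit had no term for the animal (collection) and took both muscles of a mouse as independent. In fits with the replicate block, named below as an alternative, the collection was added as a term. The median log2 fold change over all genes was 0.05. Changes over 2-fold were found in 2179 genes, of which 1507 were higher and 672 lower. The direction was the same in all 5 pairs for 5983 of the 6568 genes. The pairs are made of libraries that also gave the calls, so this count is no separate support. The ranges of the muscles did not overlap in 4396 genes tested (32.7%). In whole muscle, more cells of a type and more RNA per cell cannot be told apart.

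The myosin heavy chains separated the muscles completely. Myh7, the slow type I motor, made up 10.9, 24.5, 13.4, 3.51 and 5.14% of the summed counts of Myh7, Myh2, Myh1 and Myh4 in vastus intermedius A, C, D, E and F, against 0 to 0.00777% (median 2.27e-05%) in vastus lateralis. Myh2, the type IIa motor, took 32.1, 47.3, 42.4, 18.4 and 26.9% in the same vastus intermedius libraries and 0.0693 to 0.152% (median 0.0948%) in vastus lateralis. Myh1, the type IIx motor, took 24.9, 25.8, 33.4, 17 and 47.1% and 0.10 to 1.97% (median 0.691%). The type IIb motor Myh4 took 32.1, 2.41, 10.7, 61.2 and 20.8% in vastus intermedius and 97.9 to 99.8% (median 99.2%) in vastus lateralis. By counts, Myh4 was nearly the sole motor of vastus lateralis, and each vastus intermedius library was a mixture of all 4 motors, with no overlap between the muscles for any of them. Mean shares were 11.5 ± 8.33% in vastus intermedius and 0.00141 ± 0.00313% in vastus lateralis for Myh7, 33.4 ± 11.7% in vastus intermedius and 0.10 ± 0.0295% in vastus lateralis for Myh2, 29.6 ± 11.4% in vastus intermedius and 0.817 ± 0.721% in vastus lateralis for Myh1 and 25.4 ± 22.8% in vastus intermedius and 99.1 ± 0.75% in vastus lateralis for Myh4 (SD, n = 5 and 6). The exact two-sided permutation test, which does not use the pairing, gave p = 0.00216 for each share. That is the smallest p that 5 against 6 libraries allow, and it was the same after adjustment over the 12 shares computed. Wilson 95% intervals, which cover counting error only, reached at most 0.109 percentage points to either side of a myosin share in vastus intermedius and 0.0172 in vastus lateralis, far less than the spread between libraries. A Myh7 share of 0 in a vastus lateralis library allows up to 0.000101 to 0.000214% (3 counts).

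**Figure D1:**
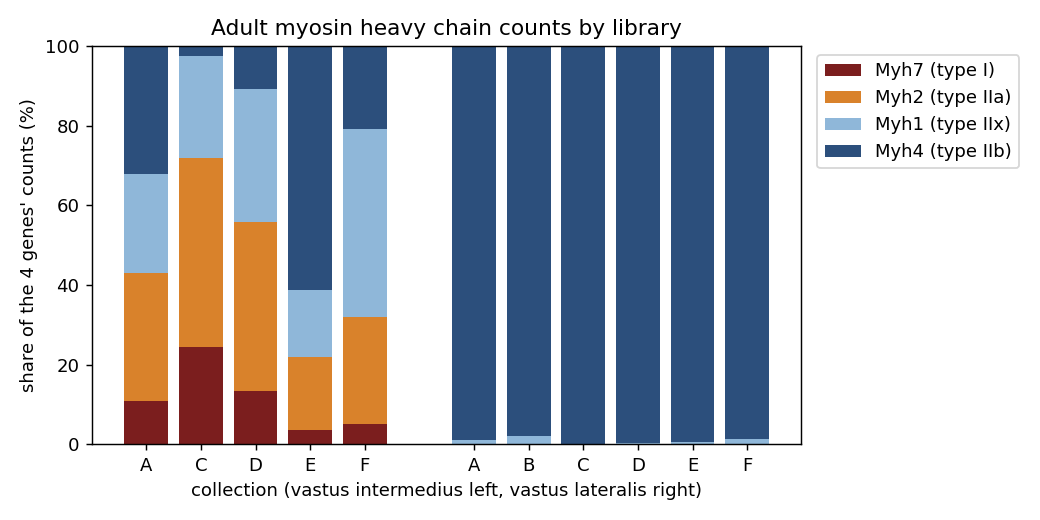
Share of the counts of 4 adult myosin heavy chain genes (percent, y axis) in each library, with collections on the x axis and 1 bar per library. Myh4 fills at least 97.9% of every vastus lateralis bar, and between 2.41% and 61.2% of the vastus intermedius bars.

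Vastus intermedius libraries differed among themselves along the same axis. Collection C had the highest Myh7 share (24.5%) and the lowest Myh4 share (2.41%), and E had the lowest Myh7 share (3.51%) and the highest Myh4 share (61.2%). The order C, D, A, F, E from high to low held for 7 of the 9 slow shares, among them Tnni1, Tnnt1 and Tnnc1 of the troponins, which switch the thin filament on when calcium binds. Actn2 and Slc16a1 differed in the order of the middle libraries. Tnni1 made up 10.2, 23.3, 11.9, 3.84 and 5.08% of Tnni1 plus Tnni2 in A, C, D, E and F, against 0 to 0.0151% (median 0%) in vastus lateralis. Tnnt1 made up 11.9, 23.8, 13.1, 5.11 and 5.84% of Tnnt1 plus Tnnt3, against 0.000481 to 0.0166% (median 0.00132%). Even collection E, the fastest of the vastus intermedius libraries by these shares, had more slow troponin than any vastus lateralis library. The slow calcium pump Atp2a2 averaged 19.5 ± 11.3% in vastus intermedius and 0.119 ± 0.0326% in vastus lateralis of Atp2a2 plus Atp2a1, and the slow calsequestrin Casq2 19 ± 9.86% in vastus intermedius and 0.132 ± 0.0548% in vastus lateralis of Casq2 plus Casq1. Actn2, the alpha-actinin of all fibres, averaged 77.6 ± 20.3% in vastus intermedius and 1.74 ± 0.999% in vastus lateralis of Actn2 plus the fast-fibre Actn3. Ldhb, the lactate dehydrogenase subunit of oxidative tissue, averaged 34 ± 11.1% in vastus intermedius and 0.273 ± 0.188% in vastus lateralis of Ldhb plus Ldha, and the lactate importer Slc16a1 77.3 ± 11.9% in vastus intermedius and 11.6 ± 2.42% in vastus lateralis of Slc16a1 plus the exporter Slc16a3. These are shares of counts, and divided by gene length the vastus intermedius means were 6.93% for Tnni1, 13.9% for Tnnt1, 13.0% for Atp2a2, 43.0% for Ldhb and 67.3% for Slc16a1, with no overlap between the muscles for any of the 12. Over the 5 pairs alone, sign flips cannot give a p under 0.0625.

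Of the 16 slow sarcomere genes tested, 15 (all but Smpx) were higher in vastus intermedius and none was lower, with a median log2 fold change of 9.86, against 0.05 over all genes. The ventricular and slow essential light chain Myl3 had 1652, 2206, 1645, 874 and 968 CPM in vastus intermedius A, C, D, E and F, and 0 to 0.939 (median 0.13) CPM in vastus lateralis. Myl2, the slow regulatory light chain, had 1187, 2068, 1423, 543 and 718 CPM and 0 to 1.84 (median 0.0648) CPM. Myh7 had 3553, 7535, 5056, 2059.6 and 2195 CPM and 0 to 6.45 (median 0.0212) CPM. In vastus lateralis these genes were close to 0 in most libraries, with collection A the highest of 6 for each. Log2 fold changes were 12.58 ± 0.62 for Myl3 (adjusted p = 1.27e-08), 11.63 ± 0.81 for Myl2 (adjusted p = 2.43e-07) and 11.69 ± 1.19 for Myh7 (adjusted p = 5.77e-06). A fold of this size rests on a handful of reads in vastus lateralis, where 3 counts in a library correspond to 0.0926 to 0.201 CPM, and without vastus lateralis A the log2 fold changes of Myl3, Myl2 and Myh7 were 14.04, 14.29 and 15.01.

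The slow troponins were higher too, with log2 fold changes of 10.45 ± 0.71 for Tnni1, 10.45 ± 0.73 for Tnnt1 and 10.32 ± 0.57 for Tnnc1. Myoz2, a slow-fibre Z-disc protein that binds calcineurin, had 411, 683, 566, 255 and 334 CPM in vastus intermedius A, C, D, E and F and 0 to 1.1 (median 0.0922) CPM in vastus lateralis (10.53 ± 0.61). Stretch-responsive Ankrd2 (9.40 ± 0.47) and Csrp3 (8.83 ± 0.65), a Z-disc LIM protein, were higher as well. The alpha cardiac myosin Myh6 (11.18 ± 0.72) and the slow tonic myosin Myh7b (9.10 ± 0.56) were higher, with mean levels of 434 ± 248 CPM in vastus intermedius and 0.171 ± 0.396 CPM in vastus lateralis for Myh6 and 62.9 ± 44.3 CPM in vastus intermedius and 0.107 ± 0.103 CPM in vastus lateralis for Myh7b (SD, n = 5 and 6). Without vastus lateralis A, the log2 fold changes of Tnnt1, Myoz2, Tnnc1 and Tnni1 were 12.07, 11.74, 10.96 and 11.05, that of Myh6 would rest on 1 count, and without F that of Tnni1 was 11.29. Smaller differences were seen where vastus lateralis had more of the gene's RNA, as for the slow tropomyosin Tpm3 (6.05 ± 0.29, 672 to 2117 CPM in vastus intermedius and 17.3 to 22.7 CPM in vastus lateralis), Actn2 (4.18 ± 0.34), the slow myosin-binding protein Mybpc1 (3.17 ± 0.64) and Myl6b (2.33 ± 0.29). Smpx, a small stretch-linked muscle protein, had 147 to 214 CPM in vastus intermedius and 153 to 265 CPM in vastus lateralis, and its log2 fold change of -0.22 ± 0.14 did not pass (adjusted p = 0.227). Per gene length, Myl2 averaged 4657 ± 2645 TPM in vastus intermedius and 1.26 ± 2.68 TPM in vastus lateralis, and its fast counterpart Mylpf 10210.0 ± 3491 TPM in vastus intermedius and 34470.0 ± 1670.0 TPM in vastus lateralis (SD, n = 5 and 6). In vastus intermedius C alone Myl2 was the higher of these light chains per length, at 8626 TPM against 6377 TPM of Mylpf.

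**Figure D2:**
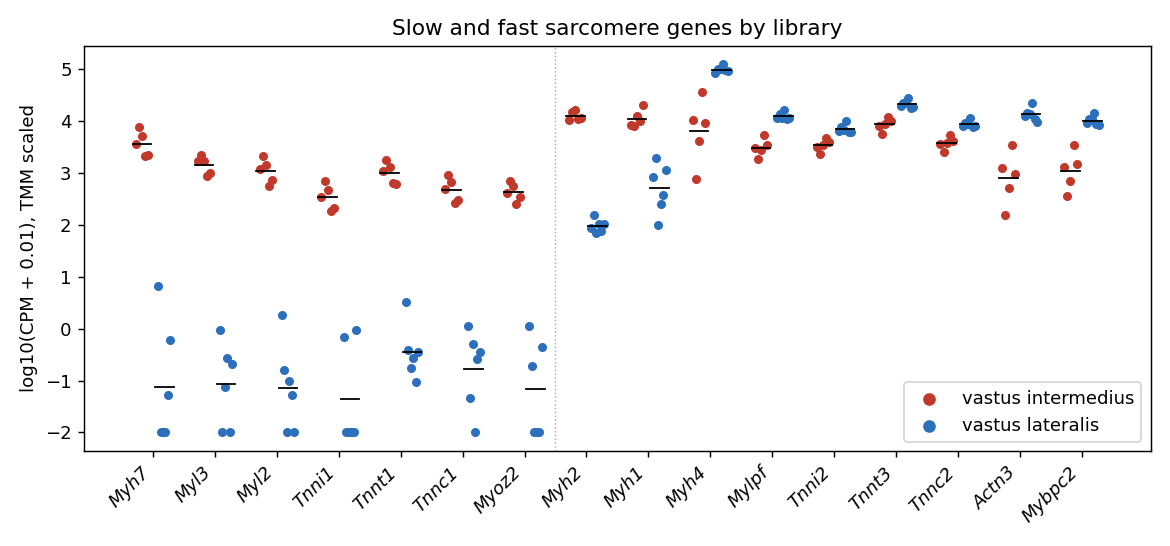
TMM-scaled CPM of slow sarcomere genes (left of the dotted line) and fast ones (right), as log10(CPM + 0.01) on the y axis, with 1 point per library, vastus intermedius in red and vastus lateralis in blue, and a line at the mean. Slow genes are near 0 in vastus lateralis (Myl3 at most 0.939 CPM), whereas fast genes other than Myh2 and Myh1 are lower but still abundant in vastus intermedius (Tnni2 at 3458 ± 894 CPM).

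The upstream sequences of 3 of these genes are shown: Myl3 and Myoz2, which were among the highest in vastus intermedius, and Myh4, the dominant myosin of vastus lateralis. Each is the 250 bases before the annotated start in RefSeq (GRCm38.p6), 5′ to 3′ on the gene's strand, at chr9:110763428-110763677 on the plus strand for Myl3, chr3:123034988-123035237 on the minus strand for Myoz2 and chr11:67237562-67237811 on the plus strand for Myh4. Capitals mark matches on either strand to the E-box CAGCTG (bound by myogenic factors such as MyoD), the MCAT element CATTCC (bound by TEAD factors), the MEF2 consensus and the CArG box (bound by serum response factor).
Myl3: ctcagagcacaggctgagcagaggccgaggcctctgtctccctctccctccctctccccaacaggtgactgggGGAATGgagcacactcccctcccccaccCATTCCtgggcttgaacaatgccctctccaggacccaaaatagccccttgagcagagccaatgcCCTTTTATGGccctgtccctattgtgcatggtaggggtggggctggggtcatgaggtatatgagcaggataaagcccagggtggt
Myoz2: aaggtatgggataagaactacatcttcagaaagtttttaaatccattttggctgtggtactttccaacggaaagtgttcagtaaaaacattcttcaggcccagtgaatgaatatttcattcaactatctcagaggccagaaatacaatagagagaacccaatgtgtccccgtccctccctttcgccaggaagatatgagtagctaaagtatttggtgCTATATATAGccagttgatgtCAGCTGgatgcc
Myh4: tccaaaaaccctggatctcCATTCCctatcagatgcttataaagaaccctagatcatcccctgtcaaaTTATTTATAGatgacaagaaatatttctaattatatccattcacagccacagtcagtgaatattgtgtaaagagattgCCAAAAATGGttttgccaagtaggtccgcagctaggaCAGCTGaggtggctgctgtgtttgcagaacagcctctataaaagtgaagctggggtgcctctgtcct
In these windows Myl3 has MCAT elements on both strands and a CArG box, Myoz2 has a MEF2 match and an E-box close to the start, and Myh4 has one match of each of the 4 motifs. No match overlaps another. These windows hold more matches than those looked at for other genes, so they are not typical of their lists. The windows of the slow genes Tnnt1, Ankrd2 and Csrp3 hold no match. The E-box was found in 30.0% of 20 windows of the 15 slow sarcomere genes that were higher, in 37.5% of 8 windows of 7 of the 13 fast sarcomere genes that were lower, and in 13.0% of all 32851 windows. The MEF2 consensus was in 5.0%, 37.5% and 2.92% of them, the MCAT element in 20%, 37.5% and 12.6%, and the CArG box in 5.0%, 12.5% and 1.47%. The oestrogen-related receptor element TCAAGGTCA was in 2 of the 20 slow windows (10%), in 0 of the fast ones and in 0.387% of all. It was in 0 of 22 windows of the fatty acid genes that were higher in vastus intermedius. A match is a description of the letters, and binding was not measured here.

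Of 16 genes on the fast sarcomere list, 13 were lower in vastus intermedius, 2 were higher and 1 did not pass, with a median log2 fold change of -1.77. Mylpf, the fast regulatory light chain, had 2962, 1824, 2768, 5286 and 3345 CPM in vastus intermedius A, C, D, E and F, against 10728 to 15872 (median 11439.9) CPM in vastus lateralis (-1.94 ± 0.24, adjusted p = 2.56e-05). Actn3, the alpha-actinin of fast glycolytic fibres, had 1232, 155, 498, 3478 and 952 CPM against 9670.2 to 21769.6 (median 12996) CPM (-3.45 ± 0.62, adjusted p = 0.00047). Parvalbumin, the calcium buffer encoded by Pvalb, had 987, 166, 453, 2961 and 786 CPM against 10267 to 12678 (median 11546) CPM (-3.42 ± 0.56, adjusted p = 0.000249). In all of these, vastus intermedius E came closest to the vastus lateralis range and vastus intermedius C was the lowest, without overlap. Myh4 itself was lower (-3.01 ± 0.69, adjusted p = 0.0028), and so was the fast myosin-binding protein Mybpc2 (-2.82 ± 0.46, adjusted p = 0.000238). Without vastus intermedius E the log2 fold changes of Myh4, Actn3 and Pvalb were -4.01, -4.28 and -4.26. The fast troponins were also lower, with log2 fold changes of -1.03 for Tnni2, -1.26 for Tnnt3 and -1.22 for Tnnc2. The members that went against the list were Myh2 (7.02 ± 0.26, adjusted p = 1.42e-09) and Myh1 (3.92 ± 0.63, adjusted p = 0.00020), the type IIa and IIx motors. Myl1, the fast essential light chain, ranged over 25.5 to 311 CPM in vastus intermedius and 47.1 to 1097 CPM in vastus lateralis and did not pass (adjusted p = 0.232).

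Of 8 developmental sarcomere genes tested, 5 were higher and 2 lower (1 with the replicate block) in vastus intermedius. Embryonic Myh3 had 4.33 to 15.8 CPM in vastus intermedius and 0.382 to 8.78 CPM in vastus lateralis, and the ranges overlapped (2.22 ± 0.72, adjusted p = 0.0207, 3.82 without vastus lateralis F). Tnnt2 (3.05 ± 0.29), the cardiac troponin T, and Myl4 (2.14 ± 0.29), the embryonic and atrial light chain, were higher. Cardiac actin Actc1 was lower, at 72.7, 19.7, 32.8, 197 and 27.3 CPM in vastus intermedius A, C, D, E and F and 216 to 2459 (median 405) CPM in vastus lateralis (-3.35 ± 0.78), with vastus lateralis D holding the highest value. Its log2 fold change was -2.39 without that library, -4.23 without vastus intermedius E and 0.32 with the collection B library kept.

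The calcium release and uptake list was mostly lower in vastus intermedius, in 24 of 29 genes tested, with 4 higher and a median log2 fold change of -0.95. Muscle contraction starts when the voltage sensor of the T-tubule opens the ryanodine receptor and calcium leaves the sarcoplasmic reticulum, and it ends when calcium is pumped back. Ryr1, the release channel, was lower (-0.83 ± 0.16), as were its voltage sensor subunits Cacna1s (-0.64) and Cacng1 (-2.16), the junctophilins Jph1 (-1.40) and Jph2 (-1.63), which hold the membranes together, and the fast pump Atp2a1 (-1.68). Casq1, the fast calcium store protein, had 794, 508, 699, 1409.6 and 731 CPM in vastus intermedius A, C, D, E and F and 3745 to 6184 (median 4058) CPM in vastus lateralis (-2.42 ± 0.24, adjusted p = 5.32e-06). The 4 higher members were Casq2 (4.93 ± 0.28), the slow pump Atp2a2 (5.91 ± 0.28), and the pump inhibitors phospholamban, encoded by Pln (2.53 ± 0.40), and sarcolipin, encoded by Sln (6.41 ± 0.63). The third inhibitor on the list, myoregulin (Mrln), was lower (-1.67 ± 0.26), so members of this inhibitor family differed in direction. Camk2a, a calcium sensor kinase, was lower (-2.31 ± 0.25), and Camk2b was the one gene that did not pass (-0.08 ± 0.09, adjusted p = 0.459).

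Among 18 membrane excitability genes, 7 were higher and 9 lower. The beta subunits of the sodium pump went opposite ways: Atp1b1 had 356, 366, 459.7, 279.7 and 436 CPM in vastus intermedius A, C, D, E and F and 3.93 to 42.1 (median 23.7) CPM in vastus lateralis (4.02 ± 0.48, adjusted p = 2.02e-05), whereas Atp1b2 had 68.5, 20.8, 37.9, 156 and 55.4 CPM and 475 to 744 (median 557) CPM (-3.07 ± 0.41, adjusted p = 4.77e-05). The muscles did not overlap for either subunit. The modulatory potassium channel subunit Kcns1 was nearly absent from vastus intermedius, at 0 to 0.187 CPM in vastus intermedius and 3.24 to 12.6 CPM in vastus lateralis (-6.44 ± 0.67, -7.17 without vastus intermedius A). The sodium channel Scn4a (-0.96) and the chloride channel Clcn1 (-1.03), which fire and reset the muscle action potential, were lower, and the calcium-activated potassium channel Kcnn3 was higher (2.07 ± 0.23). Kcnc1 (0.13 ± 0.15) and Kcna7 (0.15 ± 0.14) did not pass.

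Transcription factors and signalling genes tied to fibre type divided into 17 higher, 13 lower and 10 not called of 40, with a median log2 fold change of -0.0046. Six2, a homeobox factor, was lowest of these, with 0.709, 0.345, 0.645, 2.6 and 0.503 CPM in vastus intermedius A, C, D, E and F against 17.1 to 74.7 (median 55.1) CPM in vastus lateralis (-5.77 ± 0.52, adjusted p = 2e-06, -6.50 without vastus intermedius E). Of factors that promote the type IIb programme in mouse, lower levels were found for Mafa (-2.83 ± 0.26, adjusted p = 2.4e-06) and Maf (-1.97 ± 0.33, adjusted p = 0.000303). Also lower were Eya4 (-2.31) and Eya1 (-0.98), which encode transcriptional cofactors, the glycolytic fibre factor Tbx15 (-1.50) and Sox6 (-1.14), a repressor of slow genes in mouse. On the other side, the oestrogen-related receptor genes Esrrb and Esrrg, which code for regulators of oxidative genes, were higher: Esrrb had 29.7, 35.8, 42.1, 22.7 and 32.8 CPM against 0.132 to 1.76 (median 0.719) CPM (5.31 ± 0.41, adjusted p = 5.76e-07), and Esrrg had 57.8, 68, 79.6, 54.4 and 68.6 CPM against 0.66 to 5.8 (median 2.47) CPM (4.49 ± 0.39, adjusted p = 1.73e-06). Prox1, a homeobox factor required for slow fibres in mouse, was higher by 3.52 ± 0.41, the TEAD cofactor Vgll2 by 3.50 ± 0.39 and the fatty acid receptor Ppara by 3.37 ± 0.22.

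The coactivator Ppargc1a, which drives mitochondrial biogenesis, had 755, 70.4, 114, 97.5 and 199 CPM in vastus intermedius A, C, D, E and F and 43.7 to 58.7 (median 48.8) CPM in vastus lateralis (2.30 ± 0.50, adjusted p = 0.00198). Vastus intermedius A held most of that signal, and without it the log2 fold change was 1.26 (adjusted p = 0.000575). Calcineurin, the calcium-activated phosphatase that favours slow genes, had both catalytic subunit genes lower (Ppp3ca -1.25 ± 0.09, Ppp3cb -1.23 ± 0.14), and its modulators Rcan1 (1.62 ± 0.34) and Rcan2 (2.89 ± 0.22) were higher. Of its targets, Nfatc1 (-0.12 ± 0.11, adjusted p = 0.371) and Nfatc2 (-0.17 ± 0.14) did not pass, Nfatc3 was lower (-0.78 ± 0.07) and Nfatc4 was higher (0.91 ± 0.28). Mef2a was lower (-0.60 ± 0.08), and Mef2c (-0.10 ± 0.08) and Mef2d (-0.19 ± 0.08) did not pass.

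**Figure D3:**
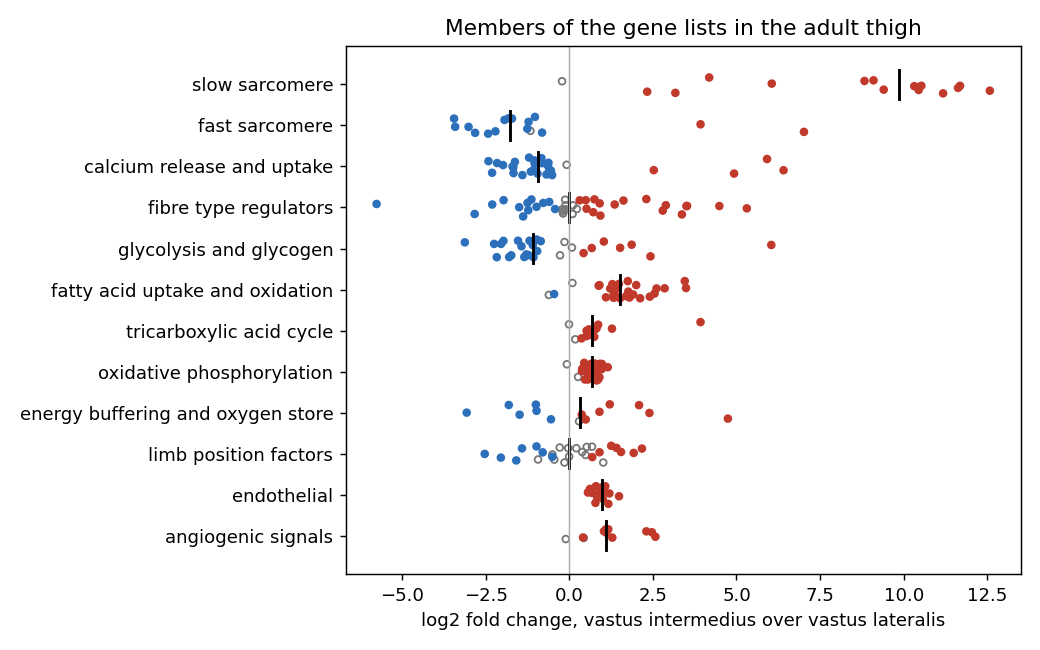
Log2 fold change of vastus intermedius over vastus lateralis (x axis) for each tested member of 12 gene lists (rows), with filled points for genes past an adjusted p of 0.05 (red higher, blue lower in vastus intermedius), open points for the rest and a bar at each list's median. The slow sarcomere list has its median at 9.86 and the fast sarcomere list at -1.77.

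Of 28 glycolysis and glycogen genes, 18 were lower and 7 higher in vastus intermedius, with a median log2 fold change of -1.08. Lower members included the enzymes Aldoa (-1.43), Gapdh (-1.19), Eno3 (-1.29), Pkm (-1.22) and Ldha (-1.54), and so did Pygm (-1.74), which releases glucose units from glycogen. Pfkfb3, which makes the activator of phosphofructokinase, averaged 98.6 ± 124 CPM in vastus intermedius and 860.0 ± 464 CPM in vastus lateralis (-3.13 ± 0.72, -4.28 without vastus intermedius E). Against the list, Ldhb had 488, 564, 622, 382 and 517 CPM in vastus intermedius A, C, D, E and F and 1.52 to 13.4 (median 7.8) CPM in vastus lateralis (6.04 ± 0.43, adjusted p = 2.72e-07). Slc16a1, the lactate importer, was higher by 2.43 ± 0.15, whereas the exporter Slc16a3 was lower (-2.25 ± 0.36). The other higher members were Pgm2 (1.86), the glycogen branching enzyme Gbe1 (1.52), Hk2 (1.03), Hk1 (0.67) and the glycogen synthase Gys1 (0.43). Gyg1, Fbp2 and the glucose transporter Slc2a4 (0.08 ± 0.14) did not pass.

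Of 27 genes for the uptake and burning of fatty acids, 24 were higher in vastus intermedius, with 1 lower (Acsl6, -0.46 ± 0.13; 2 lower with the replicate block) and a median log2 fold change of 1.52. Lpl, the lipase that frees fatty acids from circulating fat, had 1591, 1890.0, 1873, 1199 and 1836 CPM in vastus intermedius A, C, D, E and F and 111 to 195 (median 151) CPM in vastus lateralis (3.45 ± 0.17, adjusted p = 1.27e-08). Fabp3, the fatty acid carrier of heart and slow muscle, had 1001, 999, 817, 880.5 and 743 CPM and 48.5 to 98.6 (median 86.1) CPM (3.49 ± 0.19, adjusted p = 2.62e-08). For both genes each vastus intermedius library lay far above the vastus lateralis range. Pdk4, which encodes an inhibitor of pyruvate dehydrogenase, was higher by 2.85 ± 0.49 and the transporter Slc27a1 by 2.61 ± 0.12. Acadl and Ucp3 did not pass. Without vastus intermedius C, which carried fat cell transcripts, 24 of 27 were again higher, with a median of 1.49.

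Mitochondrial genes rose by smaller amounts. In the tricarboxylic acid cycle 13 of 15 genes were higher and none was lower (median 0.68), and in oxidative phosphorylation 31 of 33 were higher, with 0 lower (median 0.67). Idh2, the NADP-linked isocitrate dehydrogenase of mitochondria, was furthest apart, with 999.8, 1232, 1098, 693 and 979 CPM in vastus intermedius A, C, D, E and F against 58 to 73.4 (median 64.6) CPM in vastus lateralis (3.92 ± 0.14, adjusted p = 1.42e-09). The next in its list was Sdhb (1.27 ± 0.12), a subunit of complex II, and Idh3a (-0.01 ± 0.12) and Suclg1 (0.18 ± 0.09) did not pass. On the oxidative phosphorylation list the highest fold changes were for Ndufb3 (1.15 ± 0.07), Cyc1 (0.98 ± 0.11), Uqcrfs1 (0.97 ± 0.10) and Atp5mc1 (0.93 ± 0.14). Ndufs3 (0.26 ± 0.11) and the muscle isoform Cox6a2 (-0.08 ± 0.09) did not pass.

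Myoglobin, the oxygen store encoded by Mb, had 6067, 6450.0, 8339.7, 5426 and 7718 CPM in vastus intermedius A, C, D, E and F and 41.4 to 437 (median 247) CPM in vastus lateralis (4.74 ± 0.48, adjusted p = 5.1e-06). Creatine kinase, which buffers ATP, differed by form: mitochondrial Ckmt2 was higher (2.40 ± 0.21) and cytosolic Ckm lower (-1.49 ± 0.22). Prkag3, the AMP kinase subunit of fast glycolytic fibres, was lower (-3.07 ± 0.45, -3.78 without vastus intermedius E), and so was its catalytic partner Prkaa2 (-1.0 ± 0.12). Of AMP deaminases, Ampd1 was lower (-1.81 ± 0.19) and Ampd3 higher (2.08 ± 0.19). The list as a whole had 7 genes higher and 6 lower of 14, and Prkag2 (0.29 ± 0.15) did not pass.

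Mstn, which encodes the growth inhibitor myostatin, was the furthest apart of 20 growth and atrophy genes (5 higher, 5 lower), at 7.65, 2.68, 4.69, 27.3 and 7.66 CPM in vastus intermedius A, C, D, E and F against 105 to 169.7 (median 144) CPM in vastus lateralis (-3.85 ± 0.48, adjusted p = 2.75e-05, -4.65 without vastus intermedius E). Its receptor genes Acvr2a (-2.0 ± 0.12) and Acvr1b (-1.84 ± 0.18) and the insulin-like growth factor binding protein gene Igfbp5 (-1.66 ± 0.13) were lower too. Inhba, an activin subunit, was higher (2.25 ± 0.72, adjusted p = 0.0196), but not without vastus intermedius D (adjusted p = 0.0513), when 2 of the 20 genes were higher. Without vastus lateralis A 3 were, with Inhba at 3.20. The atrophy ubiquitin ligases Fbxo32 (-0.28 ± 0.20) and Trim63 (0.14 ± 0.23) did not pass. The share of the growth and atrophy list called was 50%, against 48.9% of all genes. At the neuromuscular junction, 6 of 13 genes were higher and 3 lower. Ache, the enzyme that clears acetylcholine, was lower (-1.75 ± 0.17), as was the adult receptor subunit Chrne (-1.58 ± 0.15), whereas the delta subunit Chrnd was higher (1.93 ± 0.36). The fetal subunit Chrng passed (adjusted p = 0.0391) at 0.425 to 1.4 CPM in vastus intermedius and 0 to 0.424 CPM in vastus lateralis, but not with the replicate block (adjusted p = 0.0712).

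Of 27 limb patterning factors tested, 7 were higher and 7 lower in vastus intermedius, a share of 51.9% against 48.9% of all genes, with a median log2 fold change of -0.0067. The posterior and distal Hoxd genes were low throughout and lower in vastus intermedius, at -2.05 ± 0.48 for Hoxd9 (0.731 to 4.0 CPM in vastus intermedius and 2.88 to 14.3 CPM in vastus lateralis) and -2.53 ± 0.67 for Hoxd10 (-4.02 without vastus intermedius E). Hoxc10 had 77.1, 69.6, 79.7, 96.9 and 90.7 CPM in vastus intermedius A, C, D, E and F against 136 to 224 (median 149.6) CPM in vastus lateralis (-0.98 ± 0.14, adjusted p = 6.09e-05). Higher members included the homeobox gene En1, with 10.4, 12, 12.6, 7.44 and 11.8 CPM against 0.585 to 3.96 (median 2.77) CPM (2.17 ± 0.42, adjusted p = 0.000868), the antisense RNA of the HoxC cluster Hotair (1.92 ± 0.53) and the hindlimb factor Tbx4 (1.55 ± 0.33). Hotair stayed under 1 CPM on average in both muscles, and reads of an antisense RNA cannot be told from those of the opposite strand where the strand setting is unknown. Of 16 satellite cell and myogenic genes 6 were higher and 3 lower, a share of 56.2% against 48.9% of all genes. Among the myogenic factors Myod1 was lower (-1.31 ± 0.21) and Myf6 too (-0.67 ± 0.09), Myf5 was higher (1.25 ± 0.30), and the satellite cell marker Pax7 did not pass (0.56 ± 0.31, adjusted p = 0.145). Pax3 was below the filter, with 15 counts over the vastus intermedius libraries and 236 over the vastus lateralis ones.

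Vessel genes were higher in vastus intermedius. All 15 endothelial markers tested passed, with a median log2 fold change of 0.98 and summed levels of 813 to 1148 CPM in vastus intermedius and 371 to 616 CPM in vastus lateralis. The VEGF receptor Kdr rose most (1.49 ± 0.14, adjusted p = 2.95e-06), and the junction protein gene Cdh5 had 111 to 144 CPM in vastus intermedius and 53.2 to 87.7 CPM in vastus lateralis. Cldn5 had no count in any library. Pericyte and smooth muscle markers were higher in 9 of 12, among them Cspg4 (1.38 ± 0.17) and Kcnj8 (1.40 ± 0.17), and 5 of 12 were higher without any one of vastus intermedius A or D or vastus lateralis B, C or D, when the smooth muscle genes Acta2 and Myh11 did not pass. Without vastus intermedius C, 13 of 15 endothelial and 7 of 12 pericyte markers were higher. Angiogenic signal genes were higher in 9 of 11, led by Fgf1 (2.57 ± 0.30), Angpt1 (2.47 ± 0.14), Vegfa (2.30 ± 0.33) and Epas1 (1.28 ± 0.12), an oxygen-sensing factor. Vegfa, the main vessel growth factor, had 1206, 383, 519, 506 and 769 CPM in vastus intermedius A, C, D, E and F and 65.2 to 197 (median 146) CPM in vastus lateralis. Vastus intermedius A was the highest for Vegfa as it was for Ppargc1a.

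The number of adipocyte and tendon genes called changed when vastus intermedius C was left out. Ucp1, the uncoupler of brown fat, had 3943 counts there, 2 in A, 0 in D, E and F, and 0 to 13 counts in vastus lateralis. The tendon list summed to 767 CPM in C, against 48.6 to 70.7 CPM in the other vastus intermedius libraries and 24.9 to 154 CPM in vastus lateralis. The adipocyte list summed to 2891 CPM in C, 999 to 1499 CPM in the other vastus intermedius libraries and 85.0 to 803 CPM in vastus lateralis. Most of the sum in every vastus intermedius library, C included, was Car3, a carbonic anhydrase that muscle also expresses. Car3 had 968 to 2050 CPM in vastus intermedius (1309 ± 462), with the highest value in C. In vastus lateralis it had at most 252 CPM (137 ± 90), well under the highest sum of 803 CPM. With C, 3 of 11 adipocyte genes were higher (Adig, Car3 and Pparg) and 0 lower, and without it 3 were higher and 7 lower. For Adipoq, which encodes the hormone adiponectin, the log2 fold change stood at -1.70 ± 1.11 with C (adjusted p = 0.219) and at -4.77 without it (adjusted p = 0.00197). Fat transcripts were uneven in vastus lateralis too, at 46 to 980 counts of Adipoq and 160 to 2843 of Cfd per library. Vastus lateralis B had the most of both, above the 669 and 1089 counts of vastus intermedius C. Plin1 was highest in C, at 1122 counts against 33 to 842 in vastus lateralis. All 4 brown adipocyte genes tested (Cidea, Ppargc1a, Dio2 and Cox8b) were higher, and Ucp1, Elovl3 and Zic1 were below the filter. Zic1 had 38, 45, 32, 16 and 6 counts in vastus intermedius A, C, D, E and F, and 4 over vastus lateralis. Elovl3 had 2, 66, 3, 4 and 2 counts, and 1 to 9 per vastus lateralis library. Without C, 3 of the 4 genes tested were higher, when Cidea, a lipid droplet gene, stood at 2.58 (adjusted p = 0.0501). The other 3 were found in every vastus lateralis library too. Ppargc1a had 43.7 to 58.7 CPM there, Dio2 1.4 to 2.65 CPM and Cox8b 188 to 231 CPM. Of 11 tendon genes, 2 were higher and 0 lower with C (Mkx and Thbs4, and 1 higher with the replicate block). Without C, 0 were higher and 4 lower, when Fmod, a collagen-binding proteoglycan gene, stood at -3.26 (adjusted p = 0.00659). With C, the share called was 27.3% of adipocyte and 18.2% of tendon genes, against 48.9% of all genes. The part of this library's other tissue in the muscle results was not tested beyond leaving it out, after which 5997 of 13630 genes passed and again 15 of 16 slow sarcomere genes were higher and 13 of 16 fast ones lower.

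**Figure D4:**
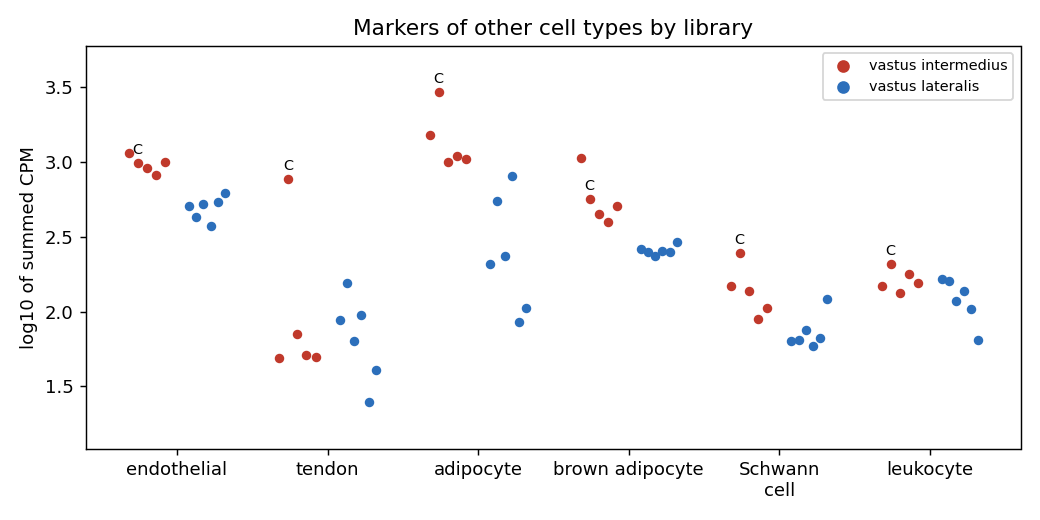
Summed CPM of marker lists for other cell types (log10, y axis) in each library, vastus intermedius in red and vastus lateralis in blue, with vastus intermedius C lettered. C is the highest for tendon (767 CPM) and adipocyte (2891 CPM, most of it Car3) markers. Endothelial markers lie above the vastus lateralis range in all vastus intermedius libraries.

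Schwann cell genes were higher in 5 of 10 (3 with the replicate block), in 2 of 10 without vastus intermedius C and in 3 without vastus intermedius A or vastus lateralis A, B or E, with sums of 89.0 to 246 CPM in vastus intermedius and 58.9 to 122 CPM in vastus lateralis. Leukocyte genes were higher in 4 of 13 (7 with the replicate block), with sums of 134 to 207 CPM in vastus intermedius and 64.1 to 164 CPM in vastus lateralis. Fibroblast genes were higher in 4 of 14 and lower in 1 (Smoc2, -0.84 ± 0.12), and the matrix genes in 14 of 26, among them Postn (1.88 ± 0.25) and Col14a1 (1.63 ± 0.39). Haemoglobin Hba-a1 was higher (1.77 ± 0.36), with erythroid sums of 54.2 to 127 CPM in vastus intermedius and 10.5 to 48.9 CPM in vastus lateralis. The spindle list had 1 gene higher of 4, Erbb3 (1.99 ± 0.25), and its muscle fibre markers Myl7 and Tmem54 had 0 counts. Of 10 cell cycle genes 3 were higher (Cenpa, Rrm2 and Pcna), or 1 without vastus intermedius E, and 1 lower, the replication gene Mcm2 (-1.31 ± 0.16). The share called was 50% of Schwann cell, 30.8% of leukocyte, 35.7% of fibroblast, 53.8% of matrix, 25% of spindle and 40% of cell cycle genes. These shares were near or below the 48.9% of all genes tested. The part of these cells in the muscle gene results was not tested.

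Of 7 small heat shock genes, which protect the contractile apparatus, 4 were higher and 3 lower, with Hspb7 at 949, 1853, 1754, 780.2 and 1118 CPM in vastus intermedius A, C, D, E and F and 21.6 to 78.1 (median 31.7) CPM in vastus lateralis (5.05 ± 0.37, adjusted p = 3.81e-07). Hspb6 (2.01), Cryab (1.64) and Hspb1 (1.13) went the same way, and Hspb8 (-1.12), Hspb3 (-0.83) and Hspb2 (-0.30) the other. Oxidant defence genes were higher in 8 and lower in 6 of 15, led by catalase, Cat (1.90 ± 0.14), and by Gstm2 (-1.31 ± 0.11) on the lower side. Immediate early genes were higher in 7 of 12, with Atf3 at 129.8, 39.3, 25.9, 25.8 and 30.7 CPM in vastus intermedius A, C, D, E and F and 0.78 to 4.54 (median 1.86) CPM in vastus lateralis (4.52 ± 0.51, 3.80 without vastus intermedius A), followed by Btg2 (2.69 ± 0.20) and Fos (2.39 ± 0.44, 3.02 without vastus lateralis D), and Myc was lower (-1.20 ± 0.28). Circadian genes were lower in 5 and higher in 1 of 15 (3 higher with the replicate block), with Rora at -1.34 ± 0.14, and the core factors Bmal1 (-0.06 ± 0.29) and Clock (-0.27 ± 0.18) did not pass. H19, an imprinted long RNA, had 1494, 1825, 1692, 1019.5 and 1268 CPM against 128 to 297 (median 174) CPM (2.98 ± 0.21, adjusted p = 2.6e-07), and Peg3 (-1.76 ± 0.45) and Dlk1 (-2.76 ± 0.61) were lower. The imprinted list had 3 of 13 entries higher and 3 lower, or 1 lower without vastus lateralis B or C and 1 lower with the replicate block. The share called was 46.2% for the imprinted list and 40% for the circadian list, against 48.9% of all genes.

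Outside the lists, the largest differences included genes with no count in vastus lateralis. Wnt16, a secreted Wnt ligand, had 5.9, 10.9, 7.62, 3.25 and 9.9 CPM in vastus intermedius A, C, D, E and F and 0 counts in all 6 vastus lateralis libraries. It was at least 424-fold higher, set against a floor of 3 counts over the 6 libraries together. Myl10, a regulatory light chain gene, had 5.26, 11.2, 5.85, 2.25 and 7.42 CPM and 0 counts, and Lncbate10, a long RNA first described in brown fat, 6.27, 0.46, 0.818, 3.6 and 1.51 CPM and 0 counts, which put them at least 363-fold and at least 140-fold higher. Of the 310 vastus intermedius counts of Lncbate10, 168 lay in A, and without that library the bound was 81.3-fold. Sv2b, a synaptic vesicle protein gene, had 13.1, 13.4, 17, 12.6 and 11.4 CPM against 0 to 0.033 (median 0) CPM (10.07 ± 0.33, adjusted p = 1.18e-09), and Lgi1, which encodes a secreted synaptic protein, 20.6, 37, 21.5, 13.7 and 17.2 CPM against 0 to 0.146 (median 0) CPM (9.66 ± 0.51, adjusted p = 2.21e-08). These rest on 1 count of Sv2b and 3 counts of Lgi1 over all of vastus lateralis, for which the ratio of pooled CPM was 2222 for Sv2b (exact 95% counting interval 398 to 87830) and 1234 for Lgi1 (422 to 5986). Reads of these genes were found in every vastus intermedius library and in at most 1 vastus lateralis library.

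At the lower end, Lin28a, an RNA-binding protein gene of early development, had 0, 0, 0.043, 0 and 0 CPM in vastus intermedius A, C, D, E and F and 0.0488 to 4.88 (median 0.851) CPM in vastus lateralis (-6.71 ± 1.21, adjusted p = 0.000496), with the highest level in vastus lateralis D. It had 1 count over vastus intermedius, for a ratio of pooled CPM of 0.00824 (exact 95% counting interval 0.000207 to 0.0466). Dkk3, a secreted protein gene of the Dickkopf family, had 2.99, 4.48, 1.55, 3.0 and 0.619 CPM against 9.9 to 93.7 (median 53.5) CPM (-4.38 ± 0.62, adjusted p = 7.67e-05). Mybph, a myosin-binding protein gene, had 8.4, 1.49, 2.71, 43 and 2.94 CPM against 57.9 to 422 (median 179.9) CPM (-4.22 ± 0.85, adjusted p = 0.00115), and here vastus intermedius E was set apart by its high value (-5.79 without it). The others were Katnal2 (-5.48), Cyp4f39 (-5.07), Ppm1n (-4.92), Cimap1d (-4.85), Themis3 (-4.66), Fam83d (-4.66), the neuronal adhesion gene Cntnap2 (-4.25), the mitochondrial membrane gene Gdap1 (-4.19), Lrtm2 (-4.14) and Srrm4os (-4.12). Several of these were under 1 CPM in every vastus intermedius library. The same direction in all 5 pairs was a condition for naming them and is no separate support. Leaving out vastus intermedius E moved Fam83d to -6.25, Cyp4f39 to -6.11, Katnal2 to -6.07, Cntnap2 to -5.24 and Srrm4os to -5.10, and leaving out F moved Lrtm2 to -4.75. Without vastus intermedius E, Ppm1n would rest on 3 counts, and without A, Themis3 on 1 count.

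The thigh difference was then set against soleus over gastrocnemius, the slow-biased and fast-biased muscles of the shank, in 1 fit of 23 adult libraries without the collection B vastus intermedius. This fit too had no term for the animal. The difference of the differences (thigh minus shank) passed in 1159 of 14304 genes (8.1%), 881 positive (6.16%) and 278 negative (1.94%). The slow sarcomere list was positive in 12 of 16 genes and negative in 1, Myl6b (-1.24 ± 0.39), with a median difference of 5.79 against 0.03 over all genes. Myl3 was at 7.98 ± 0.98 (adjusted p = 1.63e-05), with log2 fold changes of 12.57 in the thigh and 4.59 in the shank. Its levels were 919 to 2360.2 CPM in vastus intermedius and 0 to 0.988 CPM in vastus lateralis, and 3013 to 4445 CPM in soleus and 12.8 to 324 CPM in gastrocnemius. For Myl3 the range of gastrocnemius thus lay wholly above that of vastus lateralis, and the range of soleus above that of vastus intermedius. Myh7 (6.70 ± 1.32), Myl2 (7.28 ± 1.05) and Myoz2 (6.90 ± 0.86) also had positive differences. With limma-voom these 4 genes kept their direction but did not pass (adjusted p of 0.182 for Myl3, 0.357 for Myh7, 0.23 for Myl2 and 0.11 for Myoz2).

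The fast motor Myh4 had 794 to 37761 CPM in vastus intermedius and 86419.6 to 129627 CPM in vastus lateralis, and 53.2 to 116 CPM in soleus and 60529 to 103101 CPM in gastrocnemius, giving log2 fold changes of -3.03 and -10.14 and a difference of 7.11 ± 0.74 (adjusted p = 1.34e-06). The fast sarcomere list was positive in 14 of 16 genes and negative in none, with medians of -1.78 in the thigh and -3.22 in the shank. Actn3 (-3.47 and -9.37) and Pvalb (-3.44 and -7.59) differed between the pairs by 5.90 ± 0.82 and by 4.15 ± 0.71. Type IIx Myh1 was higher in vastus intermedius (3.90) and at -0.55 in the shank, with a difference of 4.45 ± 0.82 (adjusted p = 0.00125).

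**Figure D5:**
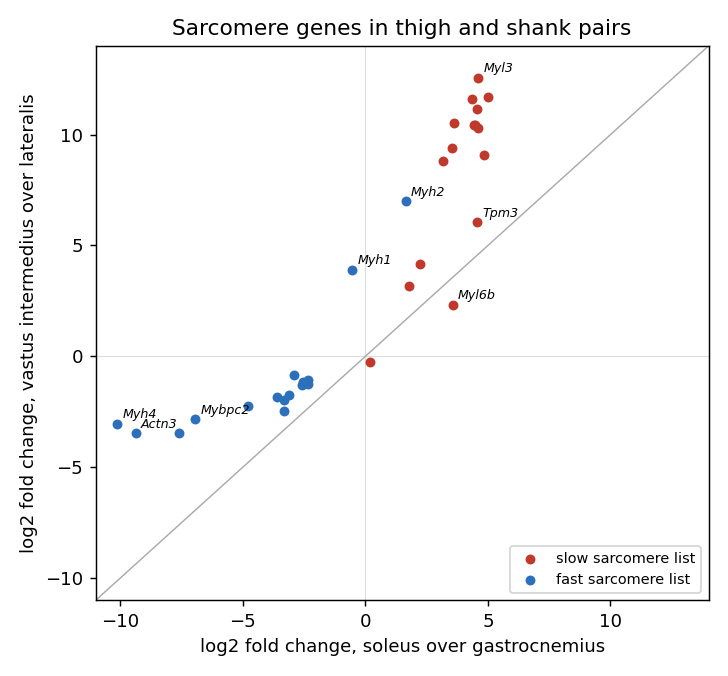
Log2 fold change of soleus over gastrocnemius (x axis) and of vastus intermedius over vastus lateralis (y axis) for tested members of the slow (red) and fast (blue) sarcomere lists, with the line of equal values. Nearly all points lie above the line, Myl3 at 4.59 and 12.57 and Myh4 at -10.14 and -3.03, and Myl6b and Smpx below it.

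The tricarboxylic acid cycle list was positive in 14 of 15 genes, with median log2 fold changes of 0.66 in the thigh and 0.02 in the shank, and oxidative phosphorylation in 28 of 33, with medians of 0.65 and 0.03. Fatty acid genes were positive in 11 of 27 and glycolysis genes in 13 of 28, and no gene of these 4 lists was negative. Bdh1, a ketone body enzyme gene of mitochondria, had 128 to 277 CPM in vastus intermedius and 0 to 1.2 CPM in vastus lateralis, and 77.9 to 136 CPM in soleus and 6.75 to 60.6 CPM in gastrocnemius (7.10 ± 0.70, adjusted p = 6.79e-07). The receptors Esrrb (2.74 ± 0.63) and Esrrg (2.39 ± 0.49) were positive, whereas no difference between the pairs passed for Prox1 (3.51 and 3.63, difference -0.12 ± 0.50, adjusted p = 0.933) or Six2 (-5.79 and -6.71, difference 0.92 ± 0.65, adjusted p = 0.469). Wnt16 was detected in both shank muscles at 2.77 to 5.48 CPM in soleus and 0.353 to 4.75 CPM in gastrocnemius, and it was positive (9.72 ± 1.29), as was Myl10 (7.07 ± 1.79). With every vastus lateralis library at 0, the fitted differences of Wnt16 and Myl10 depend on the prior count and are no bound, and that of Myl10 did not pass with limma-voom (2.90, adjusted p = 0.267) or with all 12 vastus libraries (adjusted p = 0.0753). The largest negative ones by the naming rule were Nnat (-3.68 ± 0.88), an imprinted proteolipid gene, Twist1 (-3.28 ± 0.56), a mesenchymal transcription factor gene, Insyn2b (-3.22 ± 0.82), Slc7a10 (-3.10 ± 0.95), Cyp1b1 (-2.82 ± 0.61), Fgf10 (-2.78 ± 0.85), Tph1 (-2.65 ± 0.70), which encodes the serotonin-making enzyme, and Lamc3 (-2.47 ± 0.62). Twist1 had 0.278 to 1.23 CPM in vastus intermedius and 1.67 to 7.37 CPM in vastus lateralis, with means of 1.49 ± 0.452 CPM in soleus and 1.03 ± 0.37 CPM in gastrocnemius (SD, n = 6 each). By limma-voom, Nnat (adjusted p = 0.0685), Insyn2b (adjusted p = 0.119) and Tph1 (adjusted p = 0.0904) did not pass, and with all 12 vastus libraries Nnat (adjusted p = 0.093), Twist1 (adjusted p = 0.125), Lamc3 (adjusted p = 0.0523), Slc7a10 (adjusted p = 0.972) and Fgf10 (adjusted p = 0.444) did not. Leaving out vastus lateralis A moved the differences of Myh7, Myl2, Myl3 and Myoz2 to 10.02, 9.95, 9.45 and 8.12, leaving out vastus lateralis F moved Bdh1 to 7.72, and leaving out vastus intermedius E moved Myh4 to 6.12 and Tph1 to -3.32. Without vastus intermedius C, Slc7a10 stood at -4.43, Nnat at -4.33, Fgf10 at -4.14 and Lamc3 at -3.21, and without vastus lateralis B Nnat stood at -3.095. With all 12 vastus libraries 214 genes passed, and with upper-quartile scaling 66.9% of 1053 calls were positive, against 76.0% of the 1159.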

How the data were processed

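Total RNA of whole muscles was poly(A)-selected and primed with random primers, per the labels' protocols, and RIN was above 7. FastQC 0.11.5, Trimmomatic 0.39.0, STAR 2.7.11, featureCounts (Subread 2.0.6), DESeq2 1.44.0 and the mm10 build are named in the submitters' processing notes. Annotation and strandedness of the counting: not given in the sources used here. The authors deposited raw counts for 27179 genes; symbols came from their comparison tables for 18780 and from RefSeq for 6501. The authors' deposited comparison tables served for symbols only, so their log2 and p-value columns were not used. Genes were filtered (filterByExpr), TMM-scaled and tested with edgeR 4.0.16. On simulated counts, 98% of 100 log2 changes of 1 were recovered in the thigh comparison. For the difference of the pairs it was 68% of 100. Far fewer genes changed in the simulation than were called here, so it does not check the scaling of these data. Members and gene lists were chosen with earlier results of these data known. Named genes are the 15 largest changes each way at 1 CPM or more in the higher muscle and consistent over pairs, the 8 largest pair differences each way, and up to 4 called members per list. TPM was computed here from counts and deposited gene lengths. Collection tags were taken as animals: the labels give 6 adult mice for all muscles, and the columns hold 1 library of each muscle per tag. Deviations of same-tag libraries correlated at 0.132 on average (0.0556 to 0.162), against -0.0267 for different tags. No column of per-sample values was left unmapped. The p-values cover the spread between animals of 1 strain. Shares carry Wilson intervals at 95%.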

Additional observations from a re-analysis of the deposited data

Results flagged for a closer look

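Single libraries stood apart in 17 of 84 groups examined, by the gap of the extreme library as a share of the range. The usual rate of 1 in 20 by chance assumes normal values and does not hold near 0 counts. A gene with reads in 1 library is always flagged, and Myh7 and Tnnt1 enter both as CPM and as shares. In vastus lateralis the library of collection A was the highest for slow genes: Myl3 (0.939 CPM), Myh7 (6.45 CPM), Myl2 (1.84 CPM), Myh6 (0.979 CPM), Tnnt1 (3.18 CPM), the Myh7 share (0.00777%) and the Tnnt1 share (0.0166%). Sv2b was found only in vastus lateralis C (0.033 CPM) and Lgi1 only in vastus lateralis F (0.146 CPM) of the 6. Lin28a was high in vastus lateralis D (4.88 CPM) and was found in vastus intermedius D alone (0.043 CPM). Vastus intermedius E was the highest of its group for genes that are lower in this muscle: Six2 (2.6 CPM), Cyp4f39 (0.649 CPM), Fam83d (1.15 CPM), Cntnap2 (3.05 CPM) and Mybph (43.0 CPM). Themis3 was highest in vastus intermedius A (0.411 CPM).

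The thigh and shank pairs differed, by the test of the difference, for Wnt16 (9.72), Myl3 (7.98), Myl2 (7.28), Myh4 (7.11), Bdh1 (7.10), Myl10 (7.07), Myoz2 (6.90), Myh7 (6.70), Nnat (-3.68), Twist1 (-3.28), Insyn2b (-3.22), Slc7a10 (-3.10), Cyp1b1 (-2.82), Fgf10 (-2.78), Tph1 (-2.65) and Lamc3 (-2.47), all on the log2 scale. With every vastus lateralis library at 0, the values of Wnt16 and Myl10 depend on the prior count and are no bound. Slc7a10 and Fgf10 lost their call without most single libraries.

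The vastus intermedius library that was left out held 8916 CPM of Myh3, 8345 CPM of Igf2 and 830 CPM of Dlk1, against 6.18 to 22.8, 34.3 to 57.8 and 0 to 0.496 CPM in the other adult vastus intermedius libraries.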

How the results depend on the processing

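Of 157 named genes, 133 had the same call and direction in every one of the 19 alternatives that gave them an adjusted p, and 145 without each library in turn. The replicate block kept the call of 149 of 154 and gave 6215 genes in all. It moved list counts by over 1.5 times for leukocyte (7 higher against 4), Schwann (3 against 5) and circadian genes (3 higher against 1), tendon (1 higher against 2), imprinted (1 lower against 3), developmental (1 lower against 2), fatty acid (2 lower against 1) and adipocyte genes (1 lower against 0). It lost the calls of Chrng, Acta2, Thbs4, Prx and Pcna. Counts of genes past the threshold were 6589 with upper-quartile scaling, 6574 with DESeq2 size factors, 6557 without a filter, 6931 with DESeq2, 6789 with limma-voom, 5181 with all 12 libraries and 5889 to 6583 without 1 library. With all 12, which adds a library of embryonic profile, directions reversed for Actc1 (0.32), Mcm2 (0.27), Dlk1 (6.56) and Peg3 (1.42, log2).

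For the difference of the pairs, all 12 libraries gave 214 genes, DESeq2 1424, the replicate block 1425, upper-quartile scaling 1053 (66.9% positive against 76.0%) and leaving out 1 library 798 to 1495. With the replicate block, sign flips over 5 pairs gave adjusted p = 0.0625 for every isoform share, with differences of 11.5 (Myh7), 33.3 (Myh2), 29.04 (Myh1), -73.9 (Myh4), 10.9 (Tnni1), 11.95 (Tnnt1), 13.0 (Tnnc1), 19.4 (Atp2a2), 18.8 (Casq2), 75.9 (Actn2), 33.7 (Ldhb) and 65.9 (Slc16a1) percentage points. That is the smallest p that 5 pairs allow. Depth limits genes near 0.0926 to 0.201 CPM, the level of 3 counts per library.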
